A study of Mus musculus with 8 samples.

Results

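DNA replication and S phase genes were examined in skin keratinocytes of InvEE mice, as 41 gene symbols chosen by their known roles: 10 in origin licensing, 6 in helicase activation, 11 at the priming site and the fork, 4 in nucleotide supply, 5 in chromatin assembly and maintenance, and 5 in the cell cycle control of S phase. They were chosen from 24421 symbols, and all 41 passed the filter on low counts that left 13016 genes for testing. The question was whether these transcripts change in level in keratinocytes that lack Hmgb1, a DNA-bending protein of chromatin and, once released, an alarmin. The knockout group held 4 libraries from InvEE mice with K5-Cre and Hmgb1 fl/fl alleles (InvEE DKer HMGB1 in the labels), and the control group held 4 libraries from InvEE mice with Hmgb1 fl/fl alleles and no Cre. All 8 shared the strain, CBA x C57Bl/6J, and the InvEE transgene, an activated form of the kinase MEK1 driven by the involucrin promoter, which is active in differentiating keratinocytes. K5-Cre acts in basal keratinocytes and their descendants. Because only knockouts carried it, Cre and the loss of Hmgb1 cannot be told apart. Age and sex were not given in the labels, and replicates were numbered without a statement that each was a separate animal, so the p-values reflect library-to-library spread alone, part of which may be technical.

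A cell copies its DNA once per cycle. In G1, the origin recognition complex with Cdc6 and Cdt1 loads the Mcm2 to Mcm7 ring on origins, and at the start of S phase Cdc45 and the GINS complex turn that ring into an active helicase. Primase and DNA polymerase alpha then lay down primers, the Rfc clamp loader seats the Pcna sliding clamp, and ribonucleotide reductase makes the deoxynucleotides. Many of the genes are transcribed by E2F factors in late G1 and S phase. In interfollicular epidermis such transcripts come mainly from dividing basal cells, since cells leave the cycle as they differentiate.

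Each library held 30506676 to 34229030 counts on genes, and the 41 genes had 126 to 7963 counts per library. Values below are counts per 1e6 gene counts (CPM) on library sizes scaled by the trimmed mean of M-values (TMM), and each log2 fold change is knockout minus control, with its standard error (SE), from edgeR's quasi-likelihood fit over all 13016 genes. Hmgb1 (chr5:149046702-149053057, mm10) was at 113, 119, 126 and 114 CPM in knockout libraries 1 to 4, against 565, 599, 585.5 and 615 CPM in control libraries 1 to 4. The groups lay far apart, at a log2 fold change of -2.32 with SE 0.09 (edgeR adjusted p = 3.576e-07). Basal keratinocyte markers summed to 42700 to 51100 CPM in knockouts and 42900 to 49800 CPM in controls, whereas suprabasal markers summed to 13100 to 16700 CPM in knockouts and 7790 to 12300 CPM in controls. All 5 suprabasal markers measured had a log2 fold change above 0, and Krt10, a keratin of differentiating cells, was called higher (edgeR adjusted p = 0.0169). Markers of T cells summed to at most 0.503 CPM, of endothelium to at most 4.16 CPM, of neutrophils to at most 11.8 CPM, of fibroblasts to at most 24.0 CPM and of Langerhans cells and macrophages to at most 62.8 CPM in any library. Y-linked transcripts were present in knockout library 1 and in control libraries 2 and 3, and near 0 in the rest. In these bulk libraries, fewer cells in S phase and less of a transcript per cell cannot be told apart.

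Most of the 41 genes had slightly lower fitted levels in knockouts than in controls, and 1 passed the test. The log2 fold change was below 0 for 35 of 41 genes (85.4%), against 53.1% of all genes tested, and its median was -0.17, with quartiles of -0.24 and -0.10, against a median of -0.02 over all genes. Rrm2, the small subunit of ribonucleotide reductase that accumulates in S phase, was called lower at an edgeR adjusted p under 0.05, which makes 2.44% of the 41 genes against 4.54% of all genes called lower. None of the 41 was called higher, against 4.33% of all genes, and none was higher at an unadjusted p under 0.05. DESeq2 and limma-voom also called 0 of them higher, while of all genes DESeq2 called 1093 higher and limma-voom with quality weights 955. At an unadjusted p under 0.05, 10 of 41 (24.4%) were lower, against 13.2% of all genes. In 2 genes, Rrm2 and Gins2, every knockout library lay below every control library, which is 4.88% of the 41 against 9.0% of all genes. The share called and the share without overlap were thus no higher than the background, while the shares below 0 and at an unadjusted p under 0.05 were higher. The 41 genes were measured in the same libraries and are not independent of each other.

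**Figure D1:**
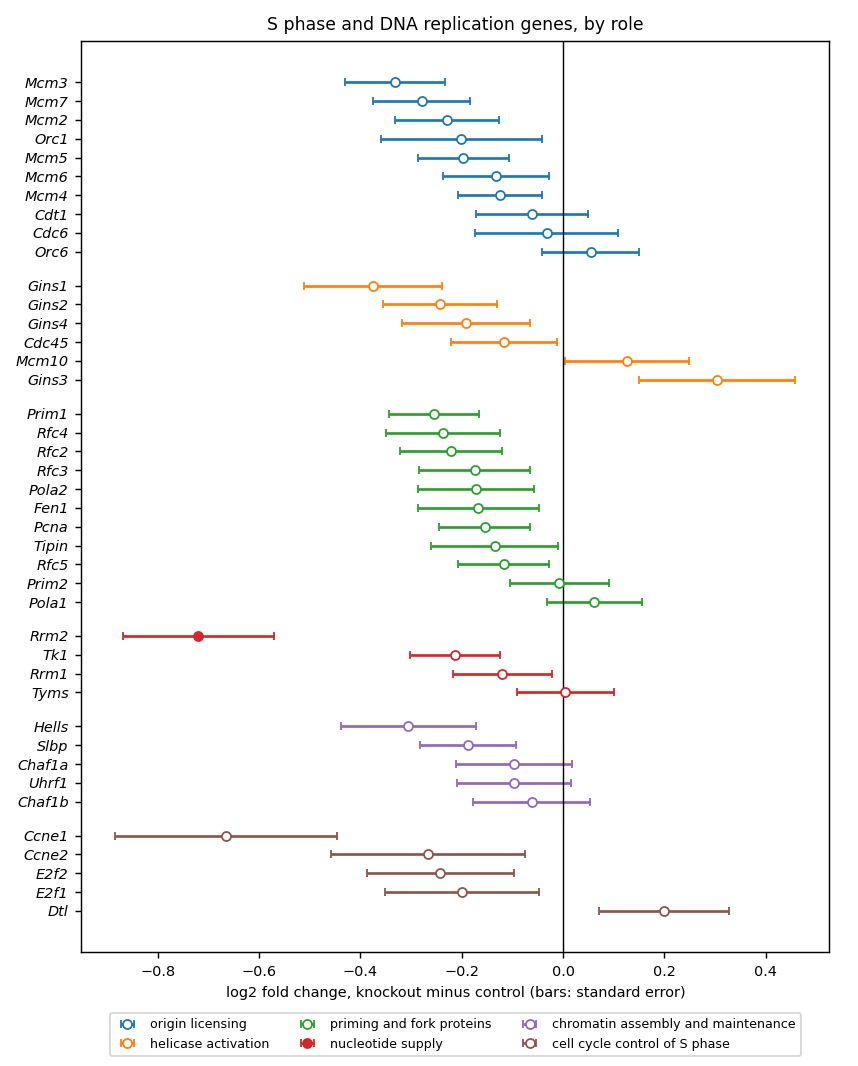
Log2 fold change (knockout minus control, x axis) of each of the 41 genes, grouped and coloured by role down the page, with the SE from edgeR as bars and a filled point for an adjusted p under 0.05. Rrm2, the filled point, lies farthest to the left at -0.72, the middle of the points lies between -0.24 and -0.10, and Gins3 lies farthest to the right at 0.30.

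The differences were small. For 39 of 41 genes the log2 fold change was smaller than 0.5 in size, and for 39 of 41 its 95% interval lay above -1, that is, above a level of 50% of control, the exceptions being Rrm2 and Ccne1. SEs ran from 0.08 to 0.22. With library totals in place of TMM the median of all genes shifted by -0.11, to -0.13, and that of the 41 genes was -0.27. The difference between the 2 medians was -0.15 with TMM and ranged from -0.20 to -0.105 over 20 alternative fits. In the 5 libraries that lack Y-linked transcripts, the median of the 41 genes was -0.115 and 32 of 41 were below 0, while the libraries with them held 1 knockout and were too few to compare.

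**Figure D2:**
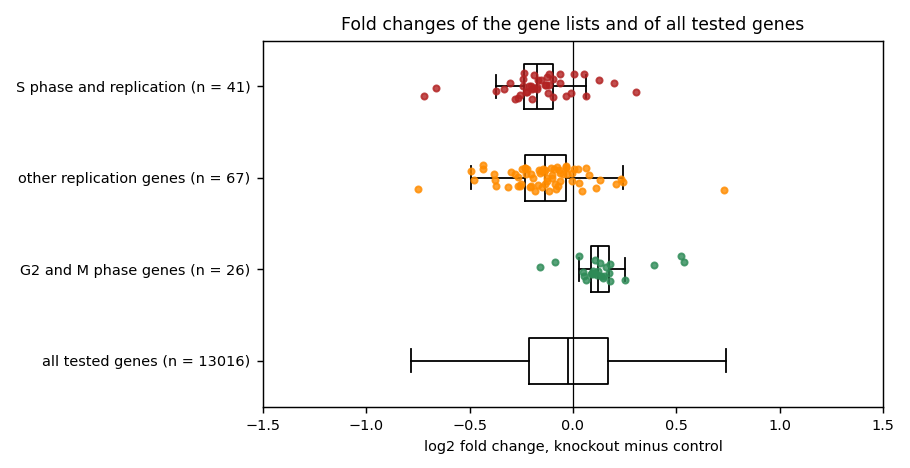
Log2 fold changes (knockout minus control, x axis) of the 41 replication and S phase genes, of the 67 other replication genes, of the 26 genes of G2 and M phase and of all 13016 genes tested. Points are genes of the lists, and none are drawn in the row of all 13016 genes. Boxes span the quartiles with the median as a line, and whiskers reach up to 1.5 times the box length. The medians are -0.17, -0.13, 0.12 and -0.02 from top to bottom.

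The nucleotide supply genes held the 1 call. Rrm2 (chr12:24708254-24714146, mm10, plus strand) was at 46.8, 52.6, 53.6 and 57.3 CPM in knockout libraries 1 to 4, against 60.8, 91.4, 105 and 89.0 CPM in control libraries 1 to 4. Every knockout library was below every control library, and control library 1 lay nearest to the knockouts. The mean was 52.6 ± 4.35 CPM in knockouts and 86.7 ± 18.7 CPM in controls (SD, n = 4 each), so knockouts were at 60.7% of control, with a log2 fold change of -0.72 (SE 0.15, 95% interval -1.05 to -0.39, edgeR adjusted p = 0.0172). The call was lost without knockout library 1 (log2 fold change -0.66, adjusted p = 0.0507), without knockout library 2 (-0.72, adjusted p = 0.0528) and without control library 2 (-0.69, adjusted p = 0.050, not under the threshold). In the 5 libraries without Y-linked transcripts, knockouts 2 to 4 against controls 1 and 4, the log2 fold change was -0.46 (adjusted p = 0.165), whereas with a Y-linked term over all 8 libraries it was -0.67 (adjusted p = 0.0348).

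Rrm1, the large subunit, was at 216, 209, 185 and 207 CPM in knockout libraries, against 192, 219, 245 and 231 CPM in control libraries. The groups overlapped, since control library 1 was below 3 of the knockout libraries, and the log2 fold change was -0.12 (SE 0.10, edgeR adjusted p = 0.472). The ratio of the 2 subunits within a library does not depend on scaling. There were 0.217, 0.252, 0.290 and 0.278 reads on Rrm2 per read on Rrm1 in knockout libraries 1 to 4, against 0.316, 0.417, 0.430 and 0.385 in control libraries 1 to 4. Every knockout ratio was below every control ratio, and the mean log2 ratio was -1.96 ± 0.186 in knockouts and -1.38 ± 0.199 in controls (SD, n = 4 each). The difference of -0.58 had an exact two-sided permutation p of 0.0286, the smallest that 4 against 4 libraries allow, and of 0.0572 after adjustment over the 2 ratios tested. Without Y-linked libraries it was -0.36 (exact p = 0.200, the smallest that 3 against 2 allow).

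**Figure D3:**
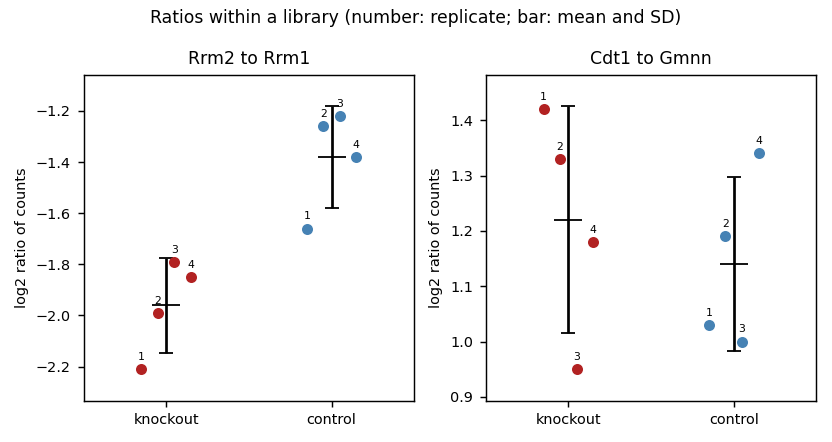
Log2 ratio of counts in each library (numbered points) for Rrm2 over Rrm1 and for Cdt1 over Gmnn, with knockout left of control and bars for the mean and SD of 4 libraries. The Rrm2 to Rrm1 ratios of the groups do not overlap, while those of Cdt1 to Gmnn do.

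Both promoters are shown because the ratio of these subunits was tested, with every CCAAT box, the binding sequence of the factor NF-Y, in capitals on either strand. Each window runs from 250 bases before to 50 bases after a start of the gene in RefSeq, build GRCm38.p6, 5′ to 3′ on the gene's strand. The Rrm2 window is chr12:24708004-24708303 (plus strand) and holds 1 box, and the Rrm1 window is chr7:102441445-102441744 (plus strand) and holds 2.
Rrm2: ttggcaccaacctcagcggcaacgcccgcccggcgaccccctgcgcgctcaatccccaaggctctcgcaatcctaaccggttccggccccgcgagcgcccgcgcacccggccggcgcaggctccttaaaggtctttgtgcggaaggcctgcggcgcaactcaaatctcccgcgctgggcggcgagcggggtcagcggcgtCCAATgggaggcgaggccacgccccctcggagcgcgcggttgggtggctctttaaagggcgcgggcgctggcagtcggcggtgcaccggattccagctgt
Rrm1: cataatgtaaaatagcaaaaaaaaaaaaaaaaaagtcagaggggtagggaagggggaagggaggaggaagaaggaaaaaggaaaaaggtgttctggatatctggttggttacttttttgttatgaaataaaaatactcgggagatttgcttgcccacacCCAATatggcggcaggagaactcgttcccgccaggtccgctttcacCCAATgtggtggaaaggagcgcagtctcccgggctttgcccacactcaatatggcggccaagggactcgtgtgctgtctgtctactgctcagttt
Neither window holds any of the 4 E2F sequences searched, TTTCCCGC, TTTCGCGC, TTTGCCGC and TTTGGCGC on both strands, which says only that these letters are not in these 300 bases.

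Tk1, a thymidine salvage kinase, was at 48.1, 56.5, 54.8 and 50.3 CPM in knockout libraries, against 53.8, 63.5, 62.9 and 62.8 CPM in control libraries. Only control library 1 fell within the knockout range, and the log2 fold change of -0.21 (SE 0.09) did not pass the adjusted threshold (edgeR adjusted p = 0.159). Tyms, thymidylate synthase, averaged 51.3 ± 0.865 CPM in knockouts and 51.2 ± 6.25 CPM in controls (SD, n = 4 each), for a log2 fold change of 0.00 with SE 0.10. Its sign changed under 5 of the 20 alternatives.

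**Figure D4:**
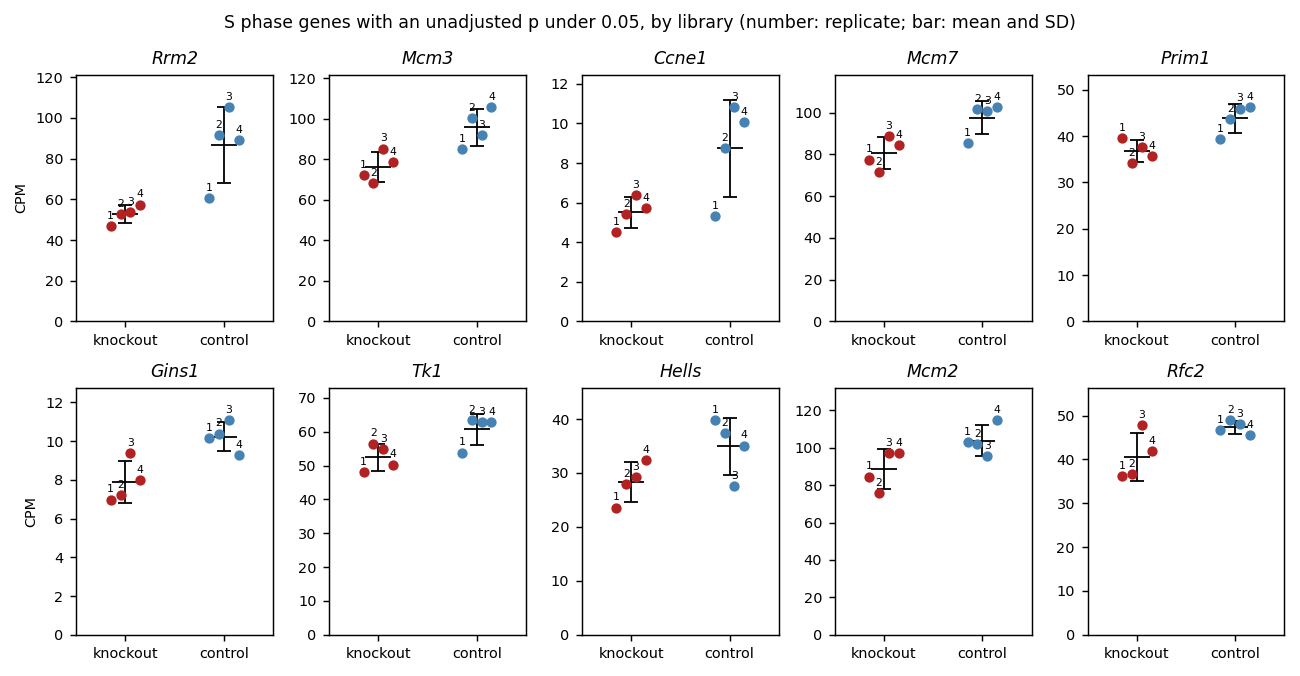
CPM in each library (points numbered by replicate, knockout left of control) for the 10 genes lower at an unadjusted p under 0.05, with the mean and SD of 4 libraries as bars. Rrm2 separates the groups, and in each of the other panels a low control or a high knockout library brings them into contact.

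Origin licensing genes showed small differences, and none passed the test, while 3 of the 10 were lower at an unadjusted p under 0.05. The log2 fold change was below 0 for 9 of 10, with a median of -0.16. DESeq2 called 1 of them, Mcm3, lower. Mcm3, a subunit of the ring, was at 72.0, 68.3, 85.2 and 78.7 CPM in knockout libraries 1 to 4, against 84.9, 100, 92.0 and 106 CPM in control libraries 1 to 4. The groups touched at knockout library 3 and control library 1. Its log2 fold change was -0.33 (SE 0.10, edgeR adjusted p = 0.0626), and it was called lower under 6 of the 20 alternatives, DESeq2 included (adjusted p = 0.0364).

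Mcm7 was at 77.5, 71.5, 88.8 and 84.4 CPM in knockout libraries, against 85.6, 102, 101 and 103 CPM in control libraries. Knockout library 3 lay above control library 1, and the log2 fold change was -0.28 (SE 0.10, edgeR adjusted p = 0.0930). Mcm7 was called lower by limma-voom with quality weights (adjusted p = 0.0331) and by edgeR with library totals (0.0424). Mcm2 was at 84.6, 75.6, 97.3 and 97.0 CPM in knockout libraries, against 103, 102, 95.4 and 115 CPM in control libraries 1 to 4. Here control library 3 fell within the knockout range, and the log2 fold change was -0.23 (SE 0.10, edgeR adjusted p = 0.183). Of the other ring subunits, Mcm6 averaged 134 ± 15.4 CPM in knockouts and 147 ± 13.3 CPM in controls, and Mcm5 averaged 111 ± 8.25 CPM in knockouts and 127 ± 9.84 CPM in controls (SD, n = 4 each). With Mcm4, at 108 ± 5.80 CPM in knockouts and 118 ± 8.14 CPM in controls, their log2 fold changes were -0.13, -0.20 and -0.12, and their groups overlapped. So the 6 subunits, which assemble in equal number, all had values below 0, between -0.33 and -0.12.

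Among the loading factors, Cdt1, which brings the ring to origins, was at 50.6, 47.0, 44.9 and 42.3 CPM in knockout libraries, against 43.7, 51.4, 41.4 and 56.3 CPM in control libraries. The control range enclosed the knockout range, with a log2 fold change of -0.06 (SE 0.11). Its inhibitor geminin, Gmnn, gives a within-library check: the log2 ratio of Cdt1 to Gmnn averaged 1.22 ± 0.205 in knockouts and 1.14 ± 0.159 in controls (SD, n = 4 each), a difference of 0.08 (exact two-sided permutation p = 0.629). Cdc6 averaged 6.38 ± 0.767 CPM in knockouts and 6.53 ± 0.373 CPM in controls, and Orc1, a subunit of the origin recognition complex, 6.22 ± 0.513 CPM in knockouts and 7.15 ± 1.27 CPM in controls. Their log2 fold changes were -0.03 for Cdc6 (SE 0.14) and -0.20 for Orc1 (SE 0.16). Orc6 was the licensing gene with a value above 0, at 0.05 (SE 0.10).

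Promoter windows of 3 ring genes are shown for the E2F sequences that many replication genes carry, in capitals on either strand, from the same RefSeq table. They are Mcm3, chr1:20820263-20820562 (minus strand), Mcm5, chr8:75109259-75109558 (plus strand), and Mcm7, chr5:138171834-138172133 (minus strand, the window of its 2 with a match).
Mcm3: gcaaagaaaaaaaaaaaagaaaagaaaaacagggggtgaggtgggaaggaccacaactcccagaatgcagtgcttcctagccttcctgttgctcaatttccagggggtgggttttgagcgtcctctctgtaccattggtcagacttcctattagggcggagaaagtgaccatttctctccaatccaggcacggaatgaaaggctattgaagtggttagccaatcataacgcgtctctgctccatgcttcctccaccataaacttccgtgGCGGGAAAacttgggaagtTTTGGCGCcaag
Mcm5: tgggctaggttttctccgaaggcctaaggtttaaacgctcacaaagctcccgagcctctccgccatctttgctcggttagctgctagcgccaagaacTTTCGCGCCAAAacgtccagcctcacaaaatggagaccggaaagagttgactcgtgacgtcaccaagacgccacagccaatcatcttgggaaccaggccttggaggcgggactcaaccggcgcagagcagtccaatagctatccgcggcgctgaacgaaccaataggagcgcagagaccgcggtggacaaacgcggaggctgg
Mcm7: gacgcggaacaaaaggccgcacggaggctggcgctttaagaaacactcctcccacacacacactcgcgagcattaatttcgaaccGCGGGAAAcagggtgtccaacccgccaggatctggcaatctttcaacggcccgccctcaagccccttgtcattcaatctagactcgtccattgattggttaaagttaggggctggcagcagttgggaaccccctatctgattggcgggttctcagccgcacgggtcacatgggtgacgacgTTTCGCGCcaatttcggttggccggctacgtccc
Positions are counted from the start on which each window was set. For Mcm5 (chr8:75109468-75128439) and Mcm7 (chr5:138164583-138172111) that start lies inside the gene's span, not at its first base. In Mcm3 the matches begin 19 and 38 bases past the start. In Mcm5 a stretch of 12 bases that holds 2 overlapping matches on opposite strands begins 153 bases before the start. In Mcm7 the matches begin 165 bases before and 16 bases past the start. Of the 41 genes, 33 had a window in the table, and 14 of these (42.4%) held an E2F match, against 4.62% of the 9906 tested genes with a window and 2.60% of all 27025 genes with one. CCAAT was in 21 of 33 (63.6%), against 42.8% of the tested genes, and the CHR element TTTGAA, known from genes of G2 and M phase, was in 5 of 33 (15.2%), against 14.2%. At the second match of Mcm7, the E2F and CCAAT matches share a base. The 14 genes with an E2F match had a median log2 fold change of -0.15 and the 19 without had -0.17.

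Helicase activation genes were mixed in direction, with 4 of 6 below 0 and a median of -0.15. None passed the test in edgeR or DESeq2, and 1 was lower at an unadjusted p under 0.05. This was Gins1, a subunit of the GINS complex, at 6.98, 7.20, 9.38 and 7.99 CPM in knockout libraries 1 to 4, against 10.2, 10.4, 11.1 and 9.29 CPM in control libraries 1 to 4. Knockout library 3 lay just above control library 4, and the log2 fold change was -0.37 (SE 0.14, edgeR adjusted p = 0.109). Gins2 was at 11.8, 10.7, 13.84 and 11.997 CPM in knockouts, against 14.21, 14.6, 14.39 and 14.05 CPM in controls. Its groups did not overlap, by a small margin, and its log2 fold change was -0.24 (SE 0.11, edgeR adjusted p = 0.201). However, 70.7% of the exon bases of Gins2 overlap those of Gse1 in GENCODE, and whether counting used strand is not given in the sources used here.

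Gins3 had the opposite sign to its partners, at 5.41, 6.45, 6.43 and 7.96 CPM in knockout libraries and 4.998, 5.59, 5.51 and 5.17 CPM in control libraries. Knockout library 1 lay within the control range, and the log2 fold change was 0.30 (SE 0.15, edgeR adjusted p = 0.243), the highest of the 41 and not past the threshold. Gins4, the remaining subunit, averaged 16.7 ± 1.84 CPM in knockouts and 19.1 ± 2.41 CPM in controls (SD, n = 4 each). Cdc45, the helicase partner of the ring, averaged 25.02 ± 1.21 CPM in knockouts and 27.1 ± 2.96 CPM in controls, and Mcm10, which helps to fire origins, 21.5 ± 0.857 CPM in knockouts and 19.7 ± 3.13 CPM in controls.

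At the priming site and the fork, 10 of 11 genes had values below 0 with a median of -0.17, none passed the test in edgeR or DESeq2, and 2 were lower at an unadjusted p under 0.05. Prim1, the catalytic subunit of primase, was at 39.6, 34.1, 37.6 and 35.7 CPM in knockout libraries 1 to 4, against 39.4, 43.6, 45.9 and 46.4 CPM in control libraries 1 to 4. The groups met at library 1 of each, and the log2 fold change was -0.25 (SE 0.09, edgeR adjusted p = 0.0962). Prim1 was called lower by limma-voom with quality weights (adjusted p = 0.0394) and by edgeR with library totals (0.0327). Its partner Prim2, the large primase subunit, averaged 30.2 ± 2.85 CPM in knockouts and 30.3 ± 1.75 CPM in controls (SD, n = 4 each), and the sign of its log2 fold change (-0.01, SE 0.10) changed under 8 alternatives. The polymerase alpha subunits differed in sign too: Pola1, the catalytic subunit, had a log2 fold change of 0.06 (SE 0.09) and Pola2 had -0.17 (SE 0.11).

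Rfc2, a clamp loader subunit, was at 36.1, 36.6, 47.8 and 41.9 CPM in knockouts, against 46.8, 49.0, 48.1 and 45.6 CPM in controls. Knockout library 3 stood within the control range and the others below it, and the log2 fold change was -0.22 (SE 0.10, edgeR adjusted p = 0.190). The other Rfc subunits had values of -0.17 for Rfc3, -0.24 for Rfc4 and -0.12 for Rfc5, all with overlapping groups. Pcna, the clamp, was at 205, 180, 190 and 184 CPM in knockouts, against 197, 235, 199 and 213 CPM in controls. Knockout library 1 was above 2 control libraries, and the log2 fold change was -0.15 (SE 0.09, edgeR adjusted p = 0.304). Fen1, the flap endonuclease of lagging strand maturation, averaged 37.2 ± 4.14 CPM in knockouts and 41.7 ± 5.52 CPM in controls, but 78.8% of its exon bases overlap those of Gm10143. Tipin, of the fork protection complex, averaged 23.9 ± 2.95 CPM in knockouts and 26.3 ± 3.45 CPM in controls. In all, 13 of the 41 genes share exon bases with another annotated gene, and Rrm2 is not among them.

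Chromatin assembly and maintenance genes all had values below 0, 5 of 5, with a median of -0.10. None passed the test in edgeR or DESeq2, and 1, Hells, was lower at an unadjusted p under 0.05. Hells, a chromatin remodelling helicase needed for DNA methylation, was at 23.6, 27.9, 29.3 and 32.4 CPM in knockouts, against 39.8, 37.4, 27.6 and 35.1 CPM in controls. Control library 3 fell within the knockout range and the other 3 above it, and the log2 fold change was -0.31 (SE 0.13, edgeR adjusted p = 0.175). Uhrf1, which recruits the maintenance methyltransferase to newly copied DNA, averaged 132 ± 15.4 CPM in knockouts and 141 ± 15.8 CPM in controls (SD, n = 4 each). Slbp, the histone mRNA binding protein, averaged 51.0 ± 5.74 CPM in knockouts and 58.1 ± 2.40 CPM in controls, a log2 fold change of -0.19 (SE 0.09). The large and middle subunits of chromatin assembly factor 1 had values of -0.10 for Chaf1a and -0.06 for Chaf1b, and 33.6% of the exon bases of Chaf1a overlap those of Ubxn6.

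Among the regulators of S phase entry, 4 of 5 had values below 0 with a median of -0.24, and none passed the test in edgeR, while DESeq2 called Ccne1 lower (adjusted p = 0.0348). Ccne1, the cyclin that activates Cdk2 at the start of S phase, was at 4.51, 5.43, 6.37 and 5.71 CPM in knockout libraries 1 to 4, against 5.31, 8.76, 10.8 and 10.1 CPM in control libraries 1 to 4. Control library 1 stood among the knockouts and the other controls above all of them, and the log2 fold change was -0.67 (SE 0.22, edgeR adjusted p = 0.0818). Without control library 1 it was -0.84 (adjusted p = 0.0184), and over all 20 alternatives it ranged from -0.84 to -0.40. Ccne2 was at 4.51, 5.27, 4.53 and 4.36 CPM in knockouts, against 4.16, 5.62, 7.49 and 5.199 CPM in controls, with control library 1 again lowest among controls and a log2 fold change of -0.27 (SE 0.19).

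Of the activator E2F genes, E2f1 averaged 23.7 ± 3.69 CPM in knockouts and 27.2 ± 4.73 CPM in controls, and E2f2 averaged 32.6 ± 6.599 CPM in knockouts and 38.6 ± 3.68 CPM in controls (SD, n = 4 each). Dtl, the substrate adaptor through which Cdt1 is degraded in S phase, was at 36.7, 37.7, 30.3 and 31.3 CPM in knockouts, against 31.5, 32.6, 23.1 and 31.3 CPM in controls. The groups overlapped and the log2 fold change was 0.20 (SE 0.13, edgeR adjusted p = 0.356), short of the threshold.

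Levels can be compared between genes only per length, here as CPM per kb of exon from GENCODE. Pcna was highest, at 125 ± 7.38 CPM per kb in knockouts and 139 ± 11.5 CPM per kb in controls (SD, n = 4 each). Rrm1 followed at 51.1 in knockouts and 55.5 in controls, and Tk1 at 36.4 in knockouts and 42.2 in controls. Rrm2 came next in controls, at 24.0 ± 1.98 CPM per kb in knockouts and 39.5 ± 8.54 CPM per kb in controls, and the SDs of Tk1 and Rrm2 in controls overlapped. The 6 ring subunits lay close together, at 25.1 to 32.1 CPM per kb in knockouts and 30.8 to 36.8 CPM per kb in controls. Ccne2, at 1.46 in knockouts and 1.76 in controls, and Cdc6, at 1.33 in knockouts and 1.36 in controls, were lowest.

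The libraries of a group were not alike. Averaged over the 41 genes, log2 CPM lay -0.16, -0.13, 0.02 and -0.04 from each gene's mean in knockout libraries 1 to 4, against -0.05, 0.15, 0.07 and 0.14 in control libraries 1 to 4. Knockout libraries 3 and 4 were not below control library 1, so the group ranges overlapped. Knockout library 1 was the lowest of all 8 for 17 of 41 genes and knockout library 2 for 12, while control library 4 was the highest for 15 and control library 2 for 11. Across the 8 libraries, 30 of 41 genes correlated above 0.5 (Pearson r, a description over libraries that include both genotypes) with the mean of the others, led by Mcm5 at 0.97, Mcm3 at 0.96 and Mcm7 at 0.95. Dtl, Gins3, Orc6, Pola1 and Mcm10 had r below 0, with Dtl lowest at -0.59. The genes outside the 41 most like their mean were Tcf7 (r = 0.97), Pomgnt1 (0.967) and Antxr2 (0.962).

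**Figure D5:**
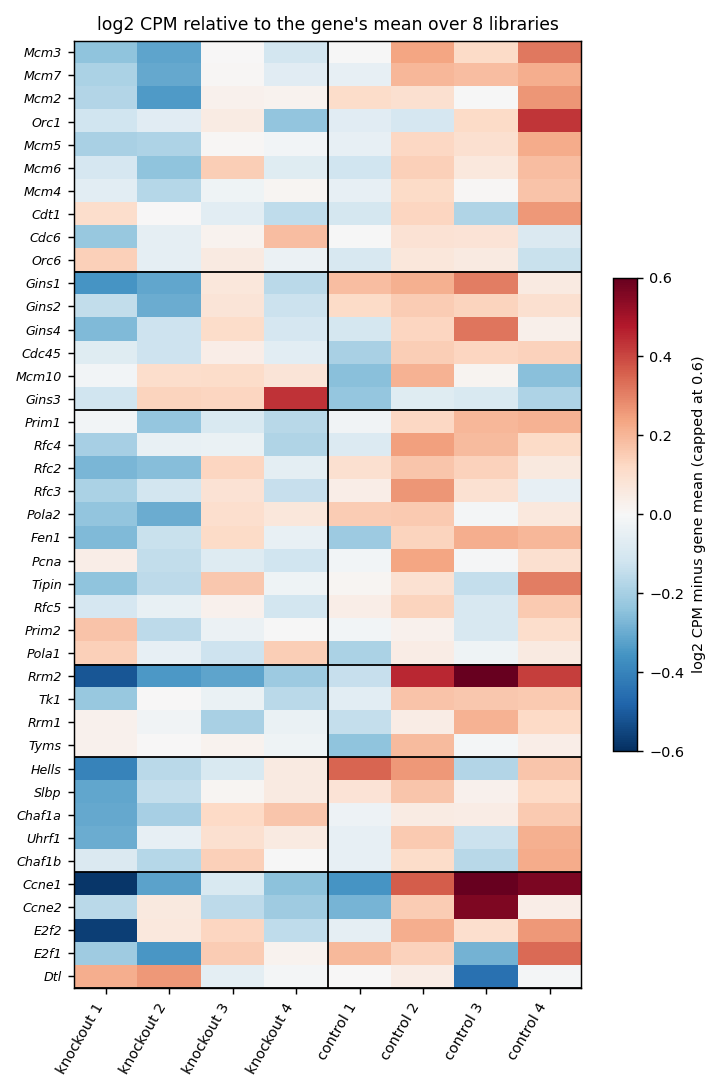
Log2 CPM of each of the 41 genes in each library minus the gene's mean over the 8 libraries, as colour (blue below, red above, capped at 0.6), with knockouts left of controls and horizontal lines between the role groups. Knockouts 1 and 2 are mostly blue and controls 2 and 4 mostly red, while control 1 and knockout 3 are mixed.

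Of the other genes of the pathway, 67 replication genes outside the 41, 55 had values below 0, against 53.1% of all genes. Their median was -0.13, and edgeR called 3 lower, against 4.54% of all genes, and 0 higher, against 4.33%. At an unadjusted p under 0.05, 15 of the 67 were lower, against 13.2% of all genes. At that p 2 were higher, for which no share of all genes was taken. DESeq2 called 7 lower and 1 higher, while of all genes it called 917 lower and 1093 higher. The groups did not overlap for 9 of the 67 with knockouts lower, against 1172 of the 13016 genes tested. They also did not overlap for 1 of the 67 with knockouts higher, for which no count over all genes was taken. Tfdp2, a dimerisation partner of E2F factors, was at 28.8, 30.0, 27.6 and 29.9 CPM in knockouts, against 40.6, 38.2, 42.2 and 36.2 CPM in controls (log2 fold change -0.44, SE 0.09, edgeR adjusted p = 0.0137). Skp2, the ubiquitin ligase adaptor that marks the cell cycle inhibitor p27 for degradation, was at 5.62, 5.07, 6.21 and 8.08 CPM in knockouts, against 9.52, 10.99, 11.98 and 9.61 CPM in controls (log2 fold change -0.75, SE 0.17, edgeR adjusted p = 0.0227). Wdhd1, which links polymerase alpha to the helicase, was at 15.5, 20.6, 16.8 and 16.8 CPM in knockouts, against 28.5, 20.7, 23.7 and 24.1 CPM in controls (log2 fold change -0.48, SE 0.13, edgeR adjusted p = 0.0454). In all 3 every knockout library was below every control library. In the 5 libraries without Y-linked transcripts none of the 3 was called. The call of Skp2 was also lost without knockout library 1, knockout library 2 or control library 2, and that of Wdhd1 without any single library other than knockout library 2. With all 8 libraries, Wdhd1 was also not called under RLE scaling (adjusted p = 0.0503), without the filter on low counts (0.0542) and by limma-voom with quality weights (0.0857). In edgeR with a block by replicate number, neither Wdhd1 (adjusted p = 0.108) nor Skp2 (0.0525) was called.

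Of the 12 G1 cyclins and inhibitors, edgeR called 1 higher, against 4.33% of all genes, and 0 lower, against 4.54%. At an unadjusted p under 0.05, 0 were lower, against 13.2% of all genes, and 3 were higher. No share of all genes higher at that p was taken. DESeq2 called 0 lower. Cdkn1a, which encodes the cell cycle inhibitor p21, was at 455, 444, 392 and 351 CPM in knockouts, against 272, 304, 183 and 262 CPM in controls. The groups did not overlap, and the log2 fold change was 0.69 (SE 0.15, edgeR adjusted p = 0.0225), a call lost without knockout library 1, without knockout library 2 and among the 5 libraries that lack Y-linked transcripts (adjusted p = 0.0594). Of the 26 genes of G2 and M phase, 24 had values above 0 and 2 below 0, against 53.1% of all genes below 0. Their median was 0.12, and edgeR called 3 higher, against 4.33% of all genes, and 0 lower, against 4.54%. DESeq2 called 0 lower. At an unadjusted p under 0.05, 0 were lower, against 13.2% of all genes, and 4 were higher. The 3 called higher were Ckap2l, a spindle protein, whose log2 fold change was 0.54 (SE 0.07, edgeR adjusted p = 0.00403), Anln, an actin binding protein of cytokinesis, with 0.52 (SE 0.09, adjusted p = 0.00814), and Cdc20, an activator of the anaphase promoting complex, with 0.39 (SE 0.09, adjusted p = 0.0213). Anln was not called in the libraries that lack Y-linked transcripts (adjusted p = 0.0699), and Cdc20 was not called with library totals (0.0661), without knockout library 2 (0.0728) or without control library 4 (0.0528). No test of the difference between the S phase and the G2 and M phase genes was made. Suprabasal marker sums were higher in every knockout library than in every control library, as given above, and their part in the values of the replication genes was not tested.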

How the data were processed

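RNA was measured in 4 knockout and 4 control keratinocyte libraries, grouped by the labels' genotype. The deposited values are raw counts per gene symbol. The submitters' processing notes name TopHat2 2.1.0, SAMtools 0.1.18, Trimmomatic 0.35, FastQC 0.11.4 and the build mm10. For the assignment of reads to genes, tool, annotation and strand are not given in the sources used here. Overlapping genes may therefore share reads. Lines for reads outside genes (15.7 to 21.75%) and ambiguous reads (0.918 to 1.11%) were left out. The title, not the file name, identified knockout library 4, since the numbers differ.

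The fit was edgeR 4.0.16's robust quasi-likelihood test (R 4.3.3) with filterByExpr, TMM and genotype as the only term, adjusted by Benjamini-Hochberg over 13016 genes at 0.05. The 41 genes, the other lists and the rule for named genes were chosen with earlier results of these data known. The rule named Hmgb1, every gene of the 41 at an adjusted or unadjusted p under 0.05, the 2 highest and the most changed of each role, up to 4 called genes of each other list, and the 3 genes most like the mean of the 41. Other genes of the 41 were named for completeness. Alternatives were DESeq2 1.42.0, limma 3.58.1 voom with and without quality weights, RLE, upper-quartile and total scaling, no filter, at least 1 CPM in 4 libraries, dispersion without the robust option, a block by replicate number, a Y-linked term, the 5 libraries without Y-linked transcripts, and each library left out. Exon lengths and overlaps come from GENCODE vM21 basic, which may differ from the authors' annotation. On simulated counts for 12915 genes with 50 changed at each fold, the share recovered by edgeR for 4 against 4 libraries was 42% for 1.5-fold changes, 88% for 2-fold, 100% for 3-fold and, among 4-fold changes, 98%.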

Additional observations from a re-analysis of the deposited data

Results flagged for a closer look

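Among 102 group values of single genes checked, 4 had a library far from the other 3 of its group by Dixon's test at 95%, where chance alone gives about 1 in 20. In 3 of the 4 the library was control 1. It held Mcm7 at 85.58 CPM, against 100.7 to 102.8 CPM in the other controls. Cdc45 stood there at 22.7 CPM, against 28.46 to 28.79 CPM, and Tk1 at 53.81 CPM, against 62.83 to 63.46 CPM. The remaining value was Dtl in control library 3, at 23.1 CPM, against 31.31 to 32.56 CPM in the other controls. Control library 1 has no Y-linked transcripts, while control library 3 has them.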

How the results depend on the processing

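Of 820 alternative values for single genes of the 41, 783 kept their sign and side of the threshold and 21 changed sign, in 9 genes. The number below 0 stayed between 32 and 38 of 41. All genes called lower (591) and higher (563) became 917 and 1093 with DESeq2, 957 and 955 with quality weights, 997 and 370 with library totals, 242 and 141 without Y-linked libraries, and 262 to 569 and 200 to 678 leaving out 1 library. Of the 41, 1 was called lower, against 3 with DESeq2, 4 with quality weights, 2 with upper-quartile scaling, 4 with library totals, 0 without Y-linked libraries, and 0 to 3 leaving out 1 library. Other replication genes called lower (3) were 7 with DESeq2, 10 with quality weights, 7 with totals, 5 with the Y-linked term, 0 without Y-linked libraries and 1 to 3 leaving out 1 library. Those called higher (0) were 1 with DESeq2, 1 with quality weights and 0 to 1 leaving out 1 library. G1 genes called higher (1) were 0 without Y-linked libraries and 0 to 1 leaving out 1 library. The median of the 41 was -0.274 with library totals. The Rrm2 to Rrm1 difference was -0.673 to -0.497 leaving out 1 library (exact p = 0.0571, the smallest that 3 against 4 allow) and -0.358 without Y-linked libraries, where the Cdt1 to Gmnn difference was -0.032. The causes of these changes were not tested.

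Same-numbered libraries did not deviate together (r -0.228 to -0.053, with 0 of 4 knockouts closest to the control of their own number). The numbers thus gave no sign of a pairing, but so few correlations cannot exclude one. With the replicate block, 348 genes were lower and 375 higher, 1 other replication gene was lower, Rrm2 stood at -0.696 (edgeR adjusted p = 0.0202), and the Rrm2 to Rrm1 difference was -0.579 (exact p = 0.125, the smallest that 4 pairs allow).

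The following values changed sign. Library totals gave Orc6 -0.055, Pola1 -0.047 and Tyms -0.103. Tyms was also -0.060 with quality weights, -0.049 with upper-quartile scaling and -0.002 with the 1 CPM filter. Prim2 was 0.008 with DESeq2, 0.008 with RLE, 0.007 with no filter and 0.004 with the Y-linked term. Without Y-linked libraries Cdc6 was 0.101, Gins4 0.001 and Ccne2 0.013, against -0.03, -0.19 and -0.27 over all 8 libraries. Leaving out 1 library gave -0.069 to 0.073 for Tyms, -0.063 to 0.042 for Prim2, -0.096 to 0.039 for Cdc6, -0.127 to 0.023 for Cdt1 and -0.123 to 0.007 for Chaf1b. Each of the 41 had at least 126 counts in every library; counting noise and the spread between libraries were not separated.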

Other observations

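Among the 67 other replication genes, a pair with roles in the deoxynucleotide pool was chosen after its values were seen. Samhd1, a hydrolase that breaks deoxynucleotides down and is also known as an interferon-induced gene, was at 58.8, 84.6, 120 and 74.5 CPM in knockout libraries 1 to 4, against 42.6, 58.8, 40.2 and 61.9 CPM in control libraries 1 to 4. Only knockout library 1 lay within the control range, and the log2 fold change of 0.73 (SE 0.22) did not pass the adjusted threshold (edgeR adjusted p = 0.0737). Dck, which phosphorylates salvaged deoxynucleosides, was at 12.8, 20.6, 20.1 and 22.8 CPM in knockouts, against 26.2, 26.5, 25.8 and 29.1 CPM in controls. Its groups did not overlap, yet its log2 fold change of -0.49 (SE 0.16) missed the threshold as well (edgeR adjusted p = 0.0783). Rrm2b, the reductase subunit used outside S phase, overlapped between groups, with a log2 fold change of 0.02 (SE 0.14).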
